A study of Mus musculus with 12 samples.

Results

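Polycomb repressive complex 2 (PRC2) was described through the genes of its 10 subunits, which were taken by symbol from a count table of 21638 genes: the methyltransferases Ezh1 and Ezh2, the core subunits Eed and Suz12, the histone-binding subunits Rbbp4 and Rbbp7, and the accessory subunits Mtf2, Phf19, Jarid2 and Aebp2. All 10 were in the table, and all 10 were among the 12577 genes tested, those whose counts averaged 10 or more. RNA came from cortical brain endothelial cells of adult mice, sorted as CD31+ CD41- CD45- cells, in 12 libraries that form 4 groups of 3. The groups were wild type (WT), endothelial Hdac2 knockout (Hdac2 ECKO, Hdac2lox/lox with Cdh5CreERT2), endothelial Ezh2 knockout (Ezh2 ECKO, Ezh2lox/lox with Cdh5CreERT2) and endothelial beta-catenin gain of function (beta-catenin GOF, Ctnnb1lox/lox with Cdh5CreERT2). Cdh5CreERT2 is a Cre recombinase driven by the promoter of the endothelial cadherin gene Cdh5 and switched on by tamoxifen. The mutants received 5 tamoxifen doses of 75 mg/kg, and brains were taken after 2 months. Whether WT mice carried the Cre or received tamoxifen, whether animals were pooled, and their exact age, sex and strain were not stated. The labels do not say that the libraries of a group came from separate animals, so every p-value measures the spread between these libraries, which may be technical.

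PRC2 places methyl groups on lysine 27 of histone H3, a mark of silenced developmental genes. Ezh1 and Ezh2 are alternative catalytic subunits: Ezh2 is the more active enzyme and is known for high levels in dividing cells, while Ezh1 persists in resting cells. Eed reads the methyl mark and stimulates the enzyme, Suz12 holds the core together, and Rbbp4 or Rbbp7 binds the histone. Mtf2 and Phf19 are Polycomb-like proteins of the PRC2.1 form, and Jarid2 and Aebp2 belong to the PRC2.2 form.

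E2F factors, which act in the cell cycle, are known to drive several core PRC2 genes in dividing cells, so the members' promoters were searched for the E2F-type motif. Its letters were TTTCCCGC, TTTCGCGC, TTTGCCGC or TTTGGCGC on either strand, in RefSeq windows (GRCm38.p6) from 250 bases before to 50 bases after each gene start. All 10 members had at least 1 window, 14 windows in all. Of these 14 windows 3 held a match, 1 each in Ezh2, Suz12 and Phf19, against 744 of 32851 windows in the whole table (2.26%). The stretches below show the 3 matches, one in each of a catalytic, a core and an accessory subunit gene, as 30 bases in the direction of the gene with the motif in capitals.
Ezh2: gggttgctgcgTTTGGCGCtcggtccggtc
Suz12: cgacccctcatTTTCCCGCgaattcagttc
Phf19: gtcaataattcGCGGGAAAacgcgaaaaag
The Ezh2 stretch lies at chr6:47595009-47595038 on the minus strand, and its motif begins 3 bases after the RefSeq start. That start lies inside the gene span given for Ezh2 below. The Suz12 stretch lies at chr11:79992876-79992905 on the plus strand, with the motif at position -219 from the start. The Phf19 stretch lies at chr2:34914166-34914195 on the minus strand, with the motif at position -208 on the opposite strand. The RefSeq start of Phf19, too, lies inside its gene span given below. A match describes letters only, and the windows of Ezh1 and the other 6 members had none.

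Library totals ran from 24781070 to 36109975 counts. Levels are given as CPM, counts scaled to a common library total, and a count of 3 in a library, the smallest used as a floor here, equals 0.0792 to 0.118 CPM. In WT the 15 endothelial markers summed to 20998 to 25959 CPM, and in Hdac2 ECKO to 18096 to 19716. The sum was 20652 to 24723 in the libraries labelled Ezh2 ECKO and 22770 to 25453 in beta-catenin GOF. The labelled cell type was thus present in every library. The lower sum in Hdac2 ECKO mainly follows Ly6c1, whose mean went from 12896 CPM (WT) to 8132. Of the 15 markers 11 had a positive log2 difference from WT there, with a median of 0.44 against 0.10 over all tested genes. Ly6c1, Cldn5, Emcn and Pecam1 were lower. Erg alone passed the threshold of 0.05, at 1.06 (edgeR adjusted p = 0.036). On the first principal component of all genes, with 29.3% of the variance, Ezh2 ECKO 2 lay at -33.2 beside the WT and beta-catenin GOF libraries and Hdac2 ECKO 2 at 9.30, whereas the other 4 libraries of these groups lay at 47.7 to 84.3. Results that rest on those 2 libraries are given with and without them. Every library was left out in turn, but these 2 were singled out because these same data placed them nearest WT in their groups. Leaving them out thus favours larger differences from WT, and calls gained in that way are not read as results.

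Ezh2 transcript was not lower in the libraries that carry its knockout label. Counts are per gene and do not resolve the lox-flanked exons, so a transcript that lacks those exons would still be counted. Ezh2 (ENSMUSG00000029687.16, chr6:47530139-47595341, minus strand) had 8.88, 2.69 and 8.69 CPM in the WT libraries and 9.85, 5.19 and 11.7 CPM in the 3 libraries with the Ezh2 ECKO label. It had 14.5, 7.67 and 6.31 CPM in Hdac2 ECKO, and 8.26, 9.02 and 10.8 CPM in beta-catenin GOF. WT 2 was the lowest of all 12 libraries and Hdac2 ECKO 1 the highest, and the values of the 4 groups overlapped. Between the libraries labelled Ezh2 ECKO and WT the log2 difference was 0.40 (SE 0.46, 95% interval -0.58 to 1.38, edgeR quasi-likelihood adjusted p = 0.61). With sample quality weights in limma, which lower the weight of discordant libraries, it was 1.28 with an adjusted p of 0.043, the 1 alternative of 14 that called it, where the alternatives gave adjusted p-values from 0.043 to 0.98. The gene-level count of Ezh2 thus did not show the knockout. It does not check the label either, so this group is written as labelled Ezh2 ECKO from here on. In bulk RNA, fewer cells of a type and less RNA per cell cannot be told apart.

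Ezh1, the alternative enzyme, was the more abundant of the pair in adult brain endothelium. Ezh1 (ENSMUSG00000006920.14, chr11:101191115-101226463, minus strand) had 40.1, 43.2 and 27.3 CPM in the WT libraries, 41.7, 35.6 and 31.2 CPM in Hdac2 ECKO, 27.9, 30.9 and 32.0 CPM in labelled Ezh2 ECKO, and 33.8, 45.9 and 30.0 CPM in beta-catenin GOF. All groups overlapped. Its log2 difference from WT was -0.03 (95% interval -0.58 to 0.53) in Hdac2 ECKO, -0.28 (-0.84 to 0.27) in labelled Ezh2 ECKO and -0.01 (-0.57 to 0.54) in beta-catenin GOF, with edgeR adjusted p-values of 0.95, 0.52 and 1.0. No mutant had a called rise of Ezh1, and the upper bounds of the 3 intervals were 0.53, 0.27 and 0.54 on the log2 scale.

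Per length of the gene, Ezh1 exceeded Ezh2 in 12 of 12 libraries. The level per kb of gene length was 4.95 CPM for Ezh1 and 1.01 CPM for Ezh2 in the WT mean, and 59.2% of the tested genes were lower than Ezh1 per length, against 27.9% for Ezh2. The ratio of Ezh1 to Ezh2 was 4.05, 14.4 and 2.82 in the WT libraries, 2.58, 4.16 and 4.43 in Hdac2 ECKO, 2.55, 5.34 and 2.45 in the labelled Ezh2 ECKO libraries, and 3.68, 4.56 and 2.49 in beta-catenin GOF. WT 2 stood highest, with the lowest Ezh2 of the 12 libraries and an Ezh1 level within the range of the others, and the groups overlapped. Over the 12 libraries the mean log2 ratio was 1.95 (SD 0.72, n = 12), a geometric mean of 3.86-fold, and a two-sided exact permutation test by sign flips gave p = 0.000488, the smallest value it can give. That test pooled the libraries of all groups, mutants included, and does not test WT alone. It covers the spread between libraries and not an error in the gene lengths. The mean log2 ratio was 2.10 both without division by length and with the longest coding length in GENCODE.

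The balance did not differ detectably between genotypes. The mean log2 ratio was 2.45 (SD 1.24, n = 3) in WT, 1.86 (SD 0.43) in Hdac2 ECKO, 1.69 (SD 0.63) in labelled Ezh2 ECKO and 1.80 (SD 0.44) in beta-catenin GOF. An exact permutation test over all 369600 assignments of the libraries to 4 groups gave p = 0.69, and the same value after adjustment over both ratios tested. Each mutant was also set against WT by a two-sided exact permutation test, where 3 against 3 cannot go below 0.1, and p was 0.7, 0.5 and 0.5. WT 2, whose Ezh2 count was 85, had the highest ratio of its group.

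**Figure D1:**
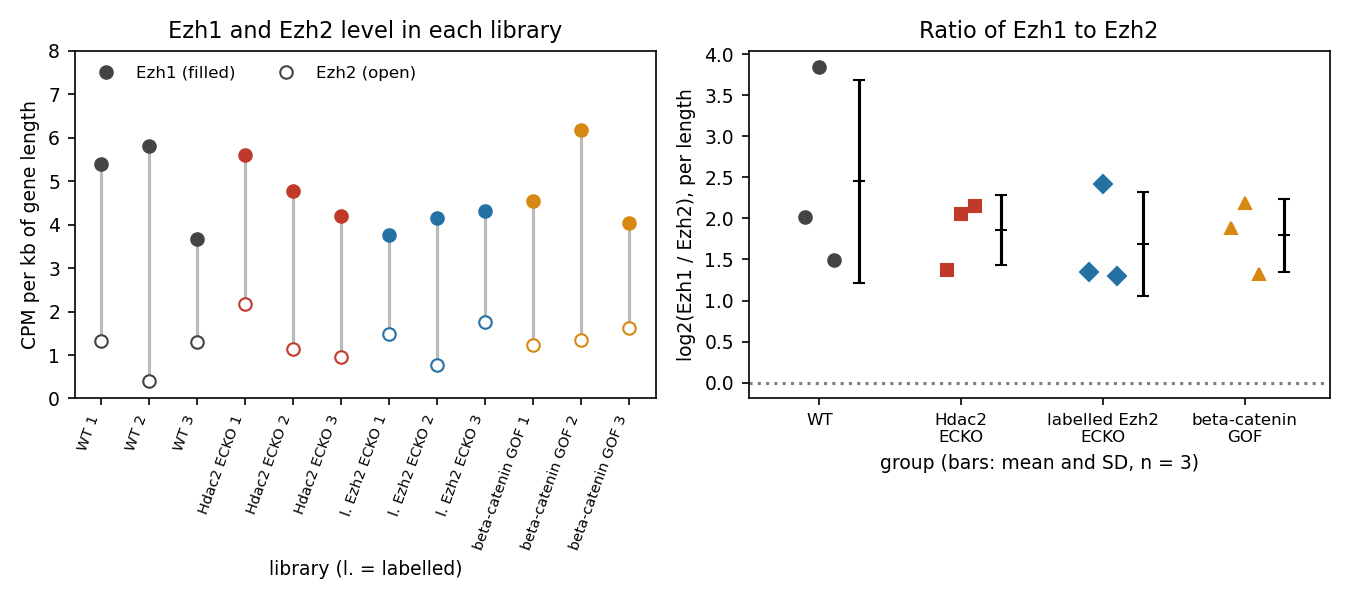
Left, level of Ezh1 (filled) and Ezh2 (open) in CPM per kb of gene length in each of the 12 libraries, joined by a grey line. Right, log2 ratio of Ezh1 to Ezh2 per length by group, with points for libraries and bars for mean and SD (n = 3); every point lies above the dotted line of equal levels, from 1.29 to 3.85.

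The tested genes whose log2 CPM followed each enzyme most closely over the 12 libraries are given as a description. For Ezh1 they were Cops7b (Pearson r = 0.88), Tbc1d17 (r = 0.86) and Aldh9a1 (r = 0.86), and for Ezh2 they were Dnajc27 (r = 0.89), Mfsd9 (r = 0.88) and Fign (r = 0.87). Each was the best of 12576 genes compared over the same 12 libraries, and neither enzyme had another PRC2 subunit among its 3.

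Subunit transcripts of 1 complex spanned a wide range of levels. Per kb of gene length the WT means were 112 CPM for Rbbp7, 23.4 for Eed, 13.2 for Rbbp4, 9.25 for Mtf2, 8.55 for Suz12, 4.95 for Ezh1, 2.53 for Aebp2, 2.09 for Jarid2, 1.01 for Ezh2 and 0.064 for Phf19. Rbbp7 thus led the order and Phf19 closed it in all 4 groups. In WT the ranges of Rbbp4 and Mtf2, of Mtf2 and Suz12, and of Aebp2 and Jarid2 overlapped, while each other pair of neighbours in the order was separate. The order depends on the length used: per kb of longest coding sequence Rbbp4 took rank 2 in WT, ahead of Eed, since much of its 8744-base gene length is not coding (longest coding length 1275 bases). Rbbp4 stood at rank 3 per gene length in WT and at rank 5 in each mutant group, behind Suz12 and Mtf2. Per kb of longest coding sequence it stood at rank 3 in each mutant group, ahead of Mtf2 and Suz12, so its place behind them was seen only per gene length.

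**Figure D2:**
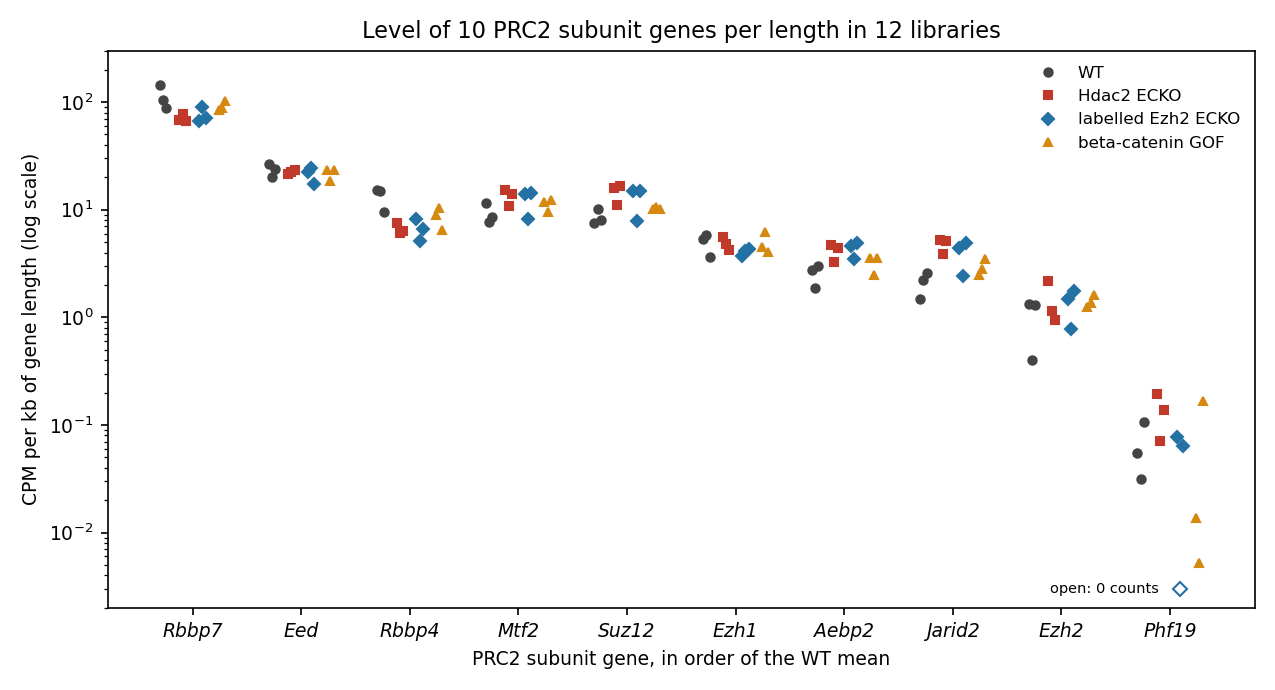
Level of each of the 10 subunit genes in CPM per kb of gene length on a log axis, 1 point per library, with groups by colour and shape and genes in order of the WT mean. The WT means run from 112 for Rbbp7 to 0.064 for Phf19, and the open diamond marks the library with 0 counts.

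Beyond the enzymes, the subunits moved in both directions in Hdac2 ECKO against WT. Rbbp4 fell and Jarid2 rose past the threshold (adjusted p under 0.05 by edgeR), 2 of 10 members, where 9.2% of all tested genes were called. At an unadjusted p under 0.05 there were 5 members and 4161 of the 12577 tested genes, and DESeq2 called 4 members and 20.3% of all tested genes. For 5 members the libraries of both groups did not overlap: Suz12, Jarid2 and Aebp2 were higher, and Rbbp4 and Rbbp7 were lower. Over all genes 37.8% did not overlap. The members' median log2 difference was 0.51 against 0.10 over all tested genes, with 6 members above 0 and 4 below.

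Fewer members passed in the other contrasts, all of which share the same WT libraries. In labelled Ezh2 ECKO against WT edgeR called 0 of 10 members, where 1.03% of tested genes were called; 4 members and 3111 of the 12577 tested genes had an unadjusted p under 0.05. DESeq2 called 2 members, Rbbp4 and Jarid2, and 10.2% of all tested genes. Rbbp4 was lower and Aebp2 higher with no overlap, 2 of 10 where 22% of tested genes did not overlap. In beta-catenin GOF against WT edgeR called 0 members, where 0% of tested genes were called (763 genes at an unadjusted p under 0.05), and so did DESeq2. Rbbp4 alone had an unadjusted p under 0.05, and 0 members were free of overlap, where 12.7% of tested genes were. The members' median log2 difference was 0.14 in labelled Ezh2 ECKO and 0.13 for beta-catenin GOF, against 0.05 and 0.01 over all tested genes.

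Rbbp4 and Rbbp7 are histone-binding WD40 proteins that also serve in the NuRD, Sin3 and CAF-1 complexes, so their level is not specific to PRC2. Rbbp4 (ENSMUSG00000057236.10, chr4:129307100-129335370, minus strand) had 133, 129 and 83.5 CPM in the WT libraries, 66.1, 53.5 and 55.2 CPM in Hdac2 ECKO, 71.5, 44.7 and 57.6 CPM in labelled Ezh2 ECKO, and 78.5, 91.7 and 56.6 CPM in beta-catenin GOF. Every Hdac2 ECKO and labelled Ezh2 ECKO library lay below the lowest WT library, and beta-catenin GOF overlapped WT. Rbbp4 fell in Hdac2 ECKO by 0.98 on the log2 scale (SE 0.27, edgeR adjusted p = 0.041), to 0.506 of the WT level. The log2 difference was -0.99 (SE 0.27, adjusted p = 0.071) in labelled Ezh2 ECKO and -0.61 (SE 0.27, adjusted p = 0.80) in beta-catenin GOF.

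The call of Rbbp4 in Hdac2 ECKO was made in 2 of 6 fits that left out 1 library, without WT 3 (adjusted p = 0.024) and without Hdac2 ECKO 2 (0.046). It was lost without WT 1 (0.15), WT 2 (0.12), Hdac2 ECKO 1 (0.16) or Hdac2 ECKO 3 (0.15), while the log2 difference kept within -1.17 and -0.87. Over those 4 fits edgeR called 0, 0, 1 and 0 of all tested genes. In labelled Ezh2 ECKO the gene was called in 8 of 14 alternatives, among them without WT 3 (log2 difference -1.18, adjusted p = 0.024) and without Ezh2 ECKO 2 (-0.84, adjusted p = 0.049), with adjusted p-values from 0.0058 to 0.26 over the 14. It was also called with the replicate number as a block, at -0.97 (adjusted p = 0.048). Without WT 3, without Ezh2 ECKO 2 and with the block, 9.04%, 18.5% and 4.26% of all tested genes were called there.

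Rbbp7 (ENSMUSG00000031353.13, chrX:162760402-162779092, plus strand), the close paralog of Rbbp4, had 419, 306 and 255 CPM in the WT libraries and 200, 224 and 192 CPM in Hdac2 ECKO. It had 195, 261 and 207 CPM in labelled Ezh2 ECKO and 243, 256 and 300 CPM in beta-catenin GOF. All Hdac2 ECKO libraries lay below all WT libraries, whereas the other mutants overlapped WT. The log2 difference was -0.67 (SE 0.24, adjusted p = 0.076) in Hdac2 ECKO, -0.56 (adjusted p = 0.16) in labelled Ezh2 ECKO and -0.29 (adjusted p = 0.92) in beta-catenin GOF. Rbbp7 was called in Hdac2 ECKO with DESeq2 (-0.72, adjusted p = 0.025) and without WT 3 (-0.82, adjusted p = 0.041), and its adjusted p-values over 14 alternatives ran from 0.0038 to 0.28.

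The balance of the paralogs did not differ detectably between the groups, which does not show that it was kept. Per length Rbbp4 stood at 0.117 of Rbbp7 in WT, 0.0941 in Hdac2 ECKO, 0.0863 in labelled Ezh2 ECKO and 0.0930 for beta-catenin GOF as geometric means. The 12 libraries ran from 0.0570 to 0.141, and an exact permutation test of the log2 ratio among the 4 groups gave p = 0.60 (adjusted over both ratios, 0.69). How reads that match both paralogs were counted is not given in the sources used here, so the split between them is uncertain. Whether reads were counted by strand is not given either: exons of Rbbp4 share 782 bases with Sync on the opposite strand, and Sync averaged 1.95 CPM in WT against 3.84 CPM in Hdac2 ECKO, far below Rbbp4 and in the other direction. Exons of Rbbp7 share 174 bases with Txlng (19.1 CPM in WT), and exons of Mtf2 share 395 bases with Tmed5 (163 CPM in WT).

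The core subunits Eed and Suz12 differed in pattern. Eed (ENSMUSG00000030619.9, chr7:89954654-89980983, minus strand) had 101, 77.6 and 90.6 CPM in the WT libraries, 81.4, 85.3 and 89.5 CPM in Hdac2 ECKO, 86.3, 93.9 and 66.0 CPM in labelled Ezh2 ECKO, and 89.0, 71.2 and 89.4 CPM in beta-catenin GOF. No group stood apart. The 95% intervals of the log2 difference from WT were -0.54 to 0.40, -0.60 to 0.35 and -0.58 to 0.37, and the edgeR adjusted p-values were 0.85, 0.76 and 0.97.

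Suz12 (ENSMUSG00000017548.15, chr11:79993106-80034123, plus strand) had 37.0, 50.4 and 39.4 CPM in the WT libraries and 79.1, 55.2 and 82.8 CPM in Hdac2 ECKO, where all libraries lay above WT. It had 74.1, 38.7 and 74.5 CPM in labelled Ezh2 ECKO, where Ezh2 ECKO 2 lay within the WT range and the other 2 libraries above it. In beta-catenin GOF it had 50.5, 52.6 and 50.01 CPM. The log2 difference was 0.78 (SE 0.28, adjusted p = 0.076) in Hdac2 ECKO, 0.56 (SE 0.28, adjusted p = 0.22) in labelled Ezh2 ECKO and 0.27 (SE 0.28, adjusted p = 0.94) in beta-catenin GOF. Without Ezh2 ECKO 2 the second of these was 0.81 and passed the threshold (adjusted p = 0.030, against 0.014 to 0.53 over 14 alternatives). In that fit 18.5% of all tested genes were called.

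**Figure D3:**
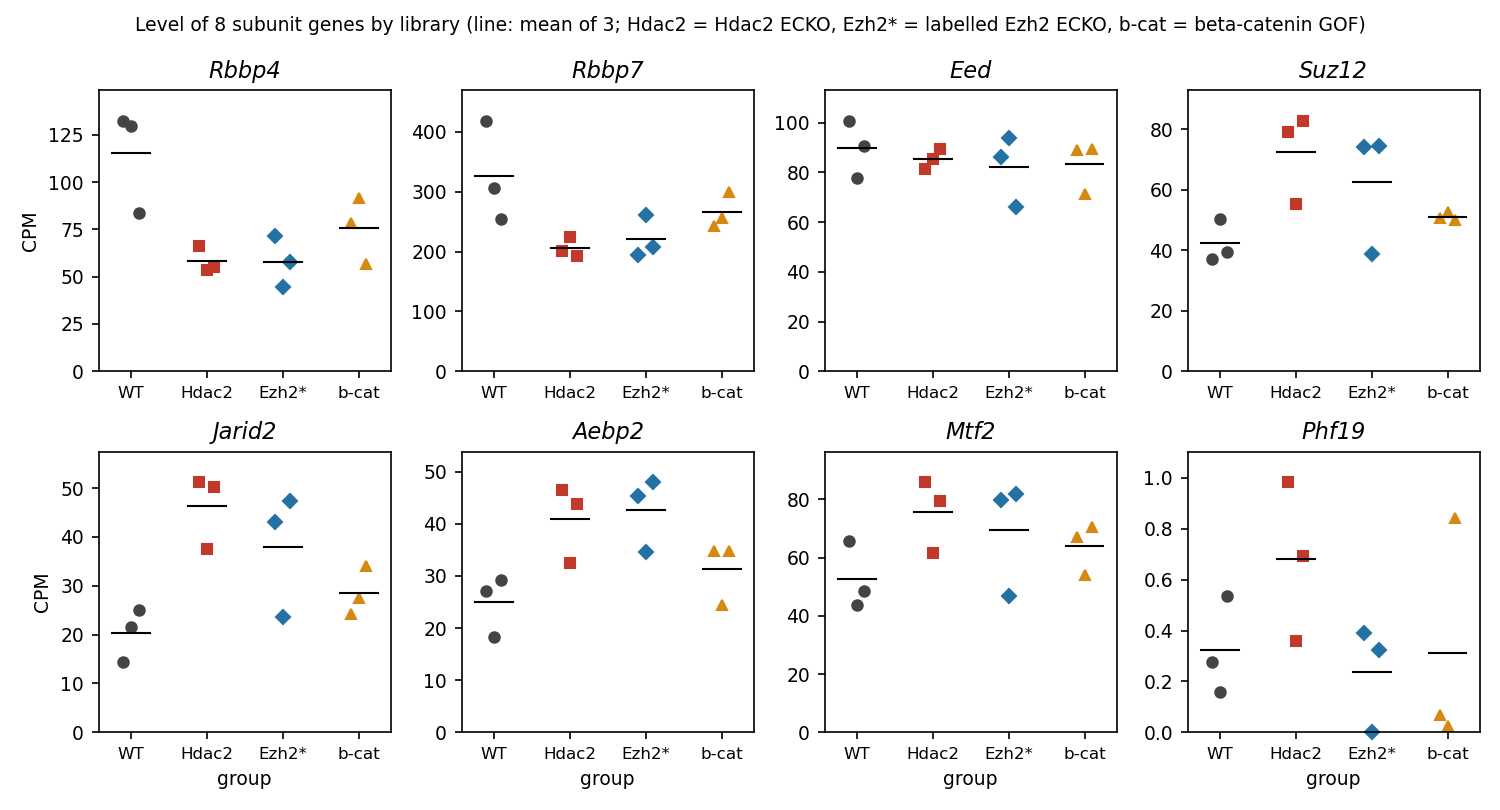
CPM of the 8 subunit genes other than the enzymes in each library, with axes from 0, a line at each group mean (n = 3) and the groups WT, Hdac2 ECKO, labelled Ezh2 ECKO (Ezh2*) and beta-catenin GOF (b-cat). The group means of Rbbp4 and Rbbp7 are highest in WT, whereas those of Jarid2, Aebp2 and Suz12 are lowest there; in the labelled Ezh2 ECKO group 1 library sits near WT for Suz12, Jarid2 and Mtf2.

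Of the PRC2.2 accessory subunits, Jarid2, which helps recruit the complex to chromatin, carried the only called rise among the members. Jarid2 (ENSMUSG00000038518.15, chr13:44729474-44921643, plus strand) had 14.3, 21.5 and 25.1 CPM in the WT libraries, 51.3, 37.6 and 50.1 CPM in Hdac2 ECKO, 43.0, 23.7 and 47.4 CPM in labelled Ezh2 ECKO, and 24.3, 27.5 and 34.0 CPM in beta-catenin GOF. All Hdac2 ECKO libraries lay above WT, and Ezh2 ECKO 2 lay within the WT range while the other 2 libraries of its label did not. Jarid2 rose 2.28-fold in Hdac2 ECKO (log2 difference 1.19, SE 0.31, edgeR adjusted p = 0.038). The log2 difference was 0.91 (SE 0.31, adjusted p = 0.10) in labelled Ezh2 ECKO and 0.49 (SE 0.31, adjusted p = 0.89) in beta-catenin GOF.

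The Jarid2 call in Hdac2 ECKO was lost without the same libraries as that of Rbbp4. This was so without WT 1 (log2 difference 0.99, adjusted p = 0.15), WT 2 (1.23, 0.10), Hdac2 ECKO 1 (1.09, 0.16) or Hdac2 ECKO 3 (1.11, 0.14), and kept without WT 3 (1.37, 0.028) or Hdac2 ECKO 2 (1.27, 0.023). In labelled Ezh2 ECKO it was made without Ezh2 ECKO 2, at 1.16 (adjusted p = 0.016, against 0.0053 to 0.34 over 14 alternatives), where 18.5% of all tested genes were called. Without both Hdac2 ECKO 2 and Ezh2 ECKO 2, an alternative chosen after seeing the data, edgeR called 6 members in Hdac2 ECKO (Suz12, Rbbp4, Rbbp7, Jarid2, Mtf2 and Aebp2) and 5 in labelled Ezh2 ECKO (the same but for Mtf2). The share of all tested genes called rose with them, to 29% and 22.3%.

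Aebp2 (ENSMUSG00000030232.18, chr6:140622663-140678472, plus strand), a zinc finger protein that stabilises PRC2.2, had 27.1, 18.4 and 29.3 CPM in the WT libraries, 46.4, 32.4 and 43.8 CPM in Hdac2 ECKO, 45.3, 34.6 and 48.1 CPM in labelled Ezh2 ECKO, and 34.8, 24.5 and 34.8 CPM in beta-catenin GOF. All libraries of the first 2 mutants lay above all WT libraries. The log2 difference was 0.72 (SE 0.27, adjusted p = 0.090), 0.78 (SE 0.27, adjusted p = 0.11) and 0.33 (SE 0.27, adjusted p = 0.92) in turn. Without Ezh2 ECKO 2 it was called in the labelled Ezh2 ECKO contrast, at 0.91 (adjusted p = 0.036, against 0.0049 to 0.41 over 14 alternatives), where 18.5% of all tested genes were called.

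The PRC2.1 subunits Mtf2 and Phf19 link the complex to unmethylated CpG-rich DNA and to methylated lysine 36 of histone H3. Mtf2 (ENSMUSG00000029267.17, chr5:108065674-108109004, plus strand) had 65.9, 43.7 and 48.5 CPM in the WT libraries, 86.1, 61.4 and 79.4 CPM in Hdac2 ECKO, 79.8, 46.9 and 81.8 CPM in labelled Ezh2 ECKO, and 67.2, 54.1 and 70.6 CPM in beta-catenin GOF. Each mutant overlapped WT, and the log2 differences of 0.52, 0.40 and 0.28 had edgeR adjusted p-values of 0.19, 0.37 and 0.94. Phf19 (ENSMUSG00000026873.9, chr2:34893757-34914026, minus strand) was near the limit of detection, with 5 to 15 counts in WT, 11 to 26 in Hdac2 ECKO, 0 to 12 in labelled Ezh2 ECKO and 1 to 29 in beta-catenin GOF. The 0 counts in Ezh2 ECKO 2 allow up to 0.118 CPM. Its log2 difference in Hdac2 ECKO was 1.06 with a 95% interval of -1.81 to 3.94, so a change of Phf19 was not detectable at this depth.

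**Figure D4:**
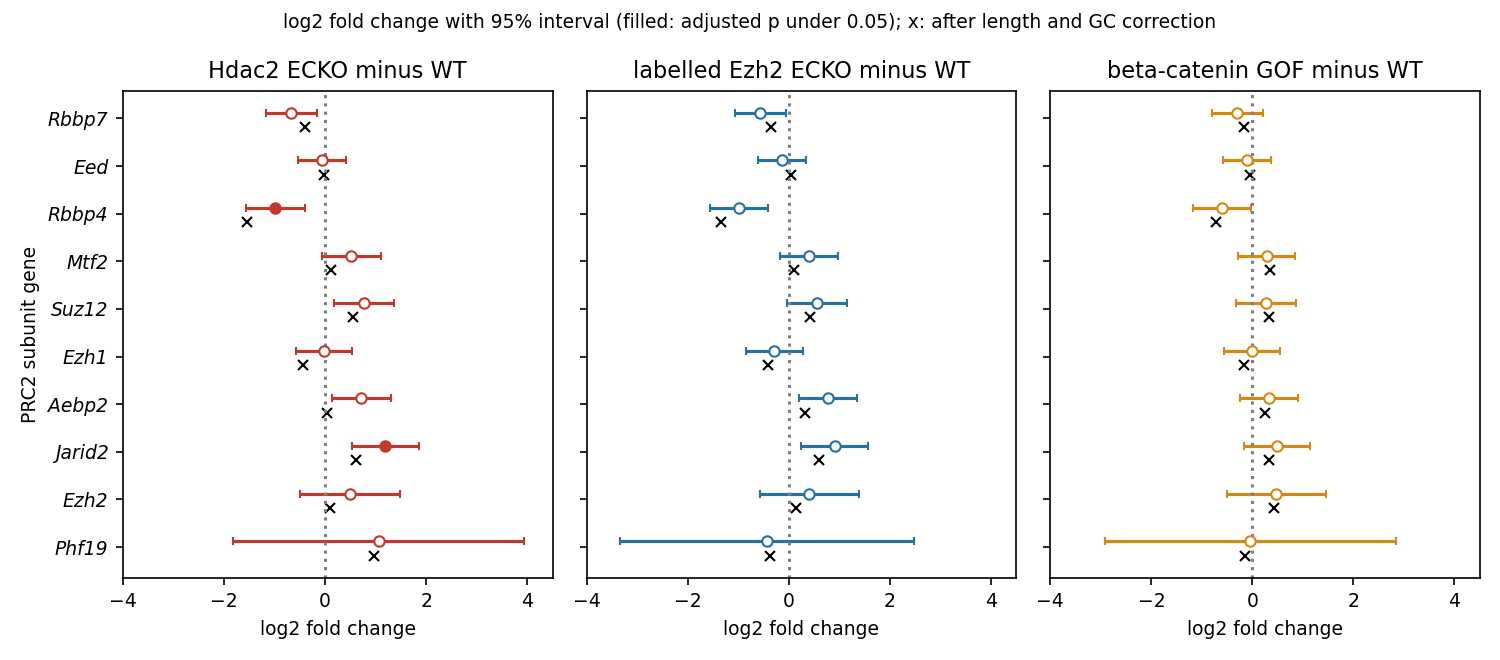
Log2 difference of each mutant from WT for the 10 subunit genes, with the 95% interval from edgeR as a bar; filled circles passed an adjusted p of 0.05, and crosses give the value after a length and GC correction. Rbbp4 at -0.98 and Jarid2 at 1.19 in Hdac2 ECKO are the 2 filled circles, and the cross of Jarid2 there lies at 0.61.

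Gene length moved with the Hdac2 ECKO contrast over the whole table. Across the 12577 tested genes the log2 difference had a Spearman correlation of 0.44 with gene length in Hdac2 ECKO, 0.29 in labelled Ezh2 ECKO and 0.14 for beta-catenin GOF, as a description across genes, which are not independent replicates. In Hdac2 ECKO the median was -0.52 in the shortest quintile (up to 2419 bases) and 0.66 in the longest quintile (from 7663 bases). Jarid2 (9715 bases), Aebp2 (9851 bases) and Rbbp4 (8744 bases) are in the longest quintile, and Rbbp4 moved against that trend. After a correction for length and GC content Rbbp4 was -1.55 in Hdac2 ECKO (adjusted p = 0.017, against 0.00052 to 0.16 over 14 alternatives) and -1.34 in labelled Ezh2 ECKO (adjusted p = 0.039), and was called in both. Jarid2 was 0.61 in Hdac2 ECKO (adjusted p = 0.11, against 0.00039 to 0.16) and was no longer called, and Aebp2 was 0.05 (adjusted p = 0.92, against 0.0022 to 0.92).

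With library size alone in place of TMM the median of all tested genes in Hdac2 ECKO moved from 0.10 to 0.34. Jarid2 (1.45), Suz12 (1.01) and Aebp2 (0.96) then passed the threshold with adjusted p-values of 0.024, 0.044 and 0.043. Rbbp4, at -0.75 (0.094), did not. With this scaling 14.5% of all tested genes were called, against 9.2% with TMM. Relative to the median Rbbp4 was still the lowest member.

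Direct tests between mutants called no member. Against labelled Ezh2 ECKO, Hdac2 ECKO had 0 of 10 members called by edgeR (0 at an unadjusted p under 0.05, 0 by DESeq2), where 0.0239% of tested genes were called, and 0 members free of overlap, where 13.2% of tested genes were. Against labelled Ezh2 ECKO, beta-catenin GOF had 0 called by edgeR (0 at an unadjusted p under 0.05, 0 by DESeq2), where 0.0636% were called, and 0 free of overlap, where 16.6% were. Against Hdac2 ECKO, beta-catenin GOF had 0 called by edgeR (1 at an unadjusted p under 0.05, 0 by DESeq2), where 0.0716% were called. Suz12 and Jarid2 were lower and Rbbp7 higher there without overlap, 3 of 10 where 32% of tested genes did not overlap. The Jarid2 difference was -0.70 (95% interval -1.35 to -0.05, adjusted p = 0.22). Of the 12577 tested genes 1030, 1655 and 2658 had an unadjusted p under 0.05 in these contrasts, in the order given. DESeq2 called 0.779%, 1.14% and 4.94% of all tested genes in the same order.

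A single test of any difference among the 4 groups called 0 of 10 members by edgeR, where 0.731% of tested genes were called. The smallest adjusted p-values were those of Rbbp4 (0.086) and Jarid2 (0.097). At an unadjusted p under 0.05 there were 3 members, Rbbp4, Jarid2 and Aebp2, and 3323 of the 12577 tested genes. DESeq2 called 2 members, Rbbp4 and Jarid2, and 16.2% of all tested genes.

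Of 5 further PRC2 accessory genes, 3 were tested. Lcor, whose locus also encodes the PRC2.1 subunit PALI1, had 6.98, 12.2 and 7.83 CPM in the WT libraries and 29.9, 21.9 and 20.0 CPM in Hdac2 ECKO. All Hdac2 ECKO libraries lay above WT, and Lcor rose by 1.41 on the log2 scale (SE 0.33, edgeR adjusted p = 0.034). Gene counts do not separate PALI1 from the other products of the locus. The call was lost without WT 1 (1.25, adjusted p = 0.13), WT 2 (1.69, 0.091), Hdac2 ECKO 1 (1.20, 0.16) or Hdac2 ECKO 3 (1.501, 0.13) and after the length and GC correction (0.63, 0.15). In the fits without these libraries edgeR called 0, 0, 1 and 0 of all tested genes, and after the correction 7.33%. The paralog Lcorl and the Polycomb-like gene Phf1 were at 0.62 (adjusted p = 0.16) and 0.18 (0.79) in Hdac2 ECKO and were not called in any contrast with WT. Lcor stood at 0.44 in labelled Ezh2 ECKO (adjusted p = 0.41) and at 1.02 in beta-catenin GOF (0.66). Epop, a PRC2.1 subunit, and Ezhip (AU022751), an inhibitor of PRC2, were below the count minimum.

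The enzymes that remove the mark, the demethylases Kdm6a and Kdm6b, did not pass. Kdm6a had 23.5, 30.6 and 32.4 CPM in the WT libraries, 76.1, 31.7 and 55.4 CPM in Hdac2 ECKO, and 49.5, 31.6 and 71.0 CPM in labelled Ezh2 ECKO. Hdac2 ECKO 2 and Ezh2 ECKO 2 lay within the WT range and the other libraries above it. The log2 difference was 0.91 (SE 0.34, adjusted p = 0.085) in Hdac2 ECKO, 0.81 (adjusted p = 0.16) in labelled Ezh2 ECKO and 0.12 (adjusted p = 0.98) in beta-catenin GOF. Without Hdac2 ECKO 2 the first was called at 1.14 (adjusted p = 0.032), and without Ezh2 ECKO 2 the second at 1.06 (0.037). In those fits 17.6% and 18.5% of all tested genes were called. Kdm6b was at -0.34, 0.04 and 0.13 in turn, with adjusted p-values of 0.48, 0.96 and 0.98.

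Among 17 tested chromatin enzymes that counteract Polycomb, such as the methyltransferases of histone H3 lysine 4 and lysine 36, 17 had a positive log2 difference in Hdac2 ECKO and 1 was called, with a median of 0.64 against 0.10 over all tested genes. Of all tested genes 54.0% were positive and 9.2% were called there, and the median was 0.66 in the longest quintile of gene length. The part of gene length in these differences was not tested. The called gene was Kmt2a, which encodes the H3K4 methyltransferase MLL1, at 27.7 CPM in WT against 66.6 CPM in Hdac2 ECKO (log2 difference 1.26, SE 0.31, adjusted p = 0.035), and it was called in 9 of 14 alternatives. In labelled Ezh2 ECKO 14 were positive and 0 were called (median 0.52), and in beta-catenin GOF 15 were positive and 0 were called (median 0.25).

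Most genes on the list of PRC2 targets used here were below the count minimum. Of 65 developmental genes held down by Polycomb in many tissues, 13 passed the count minimum. Only Grem1, a BMP antagonist, was called, in Hdac2 ECKO (edgeR adjusted p = 0.038): it had 0 counts in the 3 WT libraries and 7.50, 0.848 and 0.624 CPM in Hdac2 ECKO, so most of its signal came from Hdac2 ECKO 1. Its values were 0, 0.236 and 0.0718 CPM in labelled Ezh2 ECKO and 1.501, 0 and 0.639 CPM in beta-catenin GOF. A gene that passes the minimum only through the group where it is high had to differ, so no count over the 13 is read as a result.

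Genes of the cell cycle, in which Ezh2 usually rises, did not mark any genotype by the test: 19 of 24 were tested and 0 were called in each of the 3 contrasts with WT. Their summed level was 258 to 282 CPM in WT, 248 to 294 in Hdac2 ECKO, 316 to 347 in labelled Ezh2 ECKO and 247 to 268 in beta-catenin GOF. Of the 19 tested genes 10 were positive in labelled Ezh2 ECKO, with a median log2 difference of 0.04 against 0.05 over all tested genes. Of the 19, 6 did not overlap WT there, where 22% of all tested genes did not. Pcna, the replication clamp, named after its values were seen, averaged 145 CPM in the WT libraries against 196 CPM in labelled Ezh2 ECKO (adjusted p = 0.22). Uhrf1, also named after its values were seen, went from 0.645 to 3.90 CPM (log2 difference 2.59, edgeR adjusted p = 0.089). Foxm1 went the other way, from 0.974 to 0.249 CPM (edgeR adjusted p = 0.31).

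Markers of mural cells moved with the Hdac2 ECKO label beside Rbbp4 and Jarid2. Of 12 pericyte and smooth muscle markers 11 were tested, and 4 were called higher in Hdac2 ECKO, with a median log2 difference of 1.40. Over all tested genes there, 480 of 12577 were called higher and the median was 0.10. The markers' median was 0.07 in labelled Ezh2 ECKO and 1.31 for beta-catenin GOF, with 0 called in each. The medians over all tested genes were 0.05 and 0.01 there. Their summed level was 68.1 to 124 CPM in WT and 58.0 to 76.5 in labelled Ezh2 ECKO. By library the sum was 326, 131 and 242 CPM in Hdac2 ECKO, all above WT, and 389, 122 and 123 CPM in beta-catenin GOF, where the last 2 libraries lay within the WT range. Myh11, a smooth muscle myosin, averaged 3.38 CPM in WT against 35.6 CPM in Hdac2 ECKO, and Pdgfrb, the pericyte receptor, 0.349 and 6.10 CPM; Cnn1 was at 0 in WT. Their part in the members' differences was not tested.

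Other cell types were at low levels. The 13 leukocyte and platelet markers summed to 23.0 to 47.1 CPM in WT, 8.81 to 52.0 in Hdac2 ECKO, 16.7 to 59.0 in labelled Ezh2 ECKO and 23.0 to 47.4 in beta-catenin GOF. The leukocyte gene Cd53 had 2.08 to 2.85 CPM in WT and 0 counts in all 9 mutant libraries. The 6 astrocyte markers summed to 24.0 to 35.0 CPM in WT and 49.4 to 75.7 in Hdac2 ECKO, the 6 neuron markers to 0.972 to 5.13 and 2.94 to 10.7, and the 7 oligodendrocyte markers to 2.60 to 65.8 and 9.15 to 25.5. In labelled Ezh2 ECKO these 3 sums were 44.0 to 77.6, 0.708 to 4.67 and 4.64 to 33.4 CPM. In beta-catenin GOF they were 36.4 to 54.0, 2.12 to 3.14 and 3.38 to 11.4 CPM. Most of the astrocyte sum was Gja1 in every group. Its mean was 25.9 CPM for WT, 49.9 for Hdac2 ECKO, 50.1 for labelled Ezh2 ECKO and 42.7 for beta-catenin GOF. Slc1a3, Aqp4 and Aldh1l1 also had higher means in Hdac2 ECKO. Gfap went from 0.852 CPM (WT) to 0.174 (Hdac2 ECKO), and Aldoc from 0.399 to 0.0326. The astrocyte sum thus mainly follows 1 gene. The part of these other cell types in the members' differences was not tested.

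Hdac2, the other knocked-out gene, had 163, 122 and 104 CPM in the WT libraries and 82.2, 94.99 and 112 CPM in Hdac2 ECKO. The groups overlapped, and the log2 difference of -0.42 (SE 0.24, edgeR adjusted p = 0.22) did not pass, so the Hdac2 ECKO label, too, was not shown by the gene-level count of its target. Ctnnb1, the gene of beta-catenin, had 546, 608 and 809 CPM in the WT libraries and 696, 576 and 478 CPM in beta-catenin GOF. The groups overlapped, with a log2 difference of -0.17 (SE 0.29, edgeR adjusted p = 0.96). It stood at 0.82 (SE 0.29, adjusted p = 0.071) in Hdac2 ECKO and at 0.75 (SE 0.29, adjusted p = 0.13) in labelled Ezh2 ECKO. Counts per gene do not resolve the lox-flanked exons of this allele, so they do not check the beta-catenin GOF label.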

How the data were processed

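RNA-seq of 12 libraries in 4 groups of 3 was analysed. The authors deposited a single table of counts by gene, whose title calls it normalized. Its values are whole numbers with unequal totals (24781070 to 36109975), and they were treated as counts. What the authors did to make the deposited counts is known only from the tools below, per the submitters' processing notes. Between 79.5% and 84.0% of counts from 10 to 50 were even, so a count need not be an independent fragment. These notes name FastQC, cutadapt, STAR, featureCounts, DESeq2 and the mm10 build; settings, annotation, strand and filters are not given in the sources used here. Gene positions equal GENCODE M21 for 99.1% of genes.

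Counts were fitted with edgeR 4.0.16 (R 4.3.3): TMM scaling, genes whose counts averaged 10 or more (12577 genes), 1 quasi-likelihood model over 12 libraries with a term per group, and Benjamini-Hochberg adjustment over all genes tested, threshold 0.05. The SE was derived from the F statistic and the 95% interval from the t quantile at its degrees of freedom. CPM refers to TMM-scaled totals, and CPM per kb to the gene length in the table. The log2 ratios of Ezh1 to Ezh2 and Rbbp4 to Rbbp7 were compared with exact permutation tests. Alternatives were DESeq2 1.42.0, other scalings, no filter, sample quality weights (limma 3.58.1), a replicate block, a length and GC correction and leaving out each library. The code was tested on simulated data.

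All members were named; of the other lists, all PRC2 accessory and demethylase genes and up to 3 called genes of each list, the targeted genes, and the 3 genes most like each enzyme. Members and lists were chosen with earlier results of these data known. No replicates were near-identical.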

Additional observations from a re-analysis of the deposited data

How the results depend on the processing

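The count of called members in Hdac2 ECKO was 4 with DESeq2, 6 with sample quality weights, 1 after the length and GC correction, 6 without Hdac2 ECKO 2 and Ezh2 ECKO 2 (chosen after seeing the data), and 0 to 3 when 1 library was left out, against 2 as reported. In labelled Ezh2 ECKO it was 2 with DESeq2, 7 with sample quality weights, 1 with no filter, with the replicate block or after the length and GC correction, 5 without both libraries and 0 to 4 when 1 library was left out, against 0. With sample quality weights it was 2 in beta-catenin GOF against Hdac2 ECKO, where 26.5% of all tested genes were called. For any difference among the 4 groups it was 2 with DESeq2 or no filter, 6 with sample quality weights, 1 after the length and GC correction and 0 to 3 when 1 library was left out. In beta-catenin GOF against WT it was 0 under every alternative run. The cause was not tested. Over all genes, called counts in Hdac2 ECKO ran from 0 to 5374 and in labelled Ezh2 ECKO from 2 to 3743 over the alternatives, against 1157 and 129. Sample quality weights called 42.7% of all tested genes in Hdac2 ECKO, 29.8% in labelled Ezh2 ECKO and 39.9% for any difference. DESeq2 called 20.3%, 10.2% and 16.2% in turn, and the length and GC correction gave 7.33%, 2.92% and 1.29%. Without both libraries the shares were 29% in Hdac2 ECKO and 22.3% in labelled Ezh2 ECKO. In labelled Ezh2 ECKO no filter gave 6.72% and the replicate block 4.26%, and for any difference no filter gave 12.2%.

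Of 409 member values under alternatives, 388 kept their direction, 10 lost a call and 36 gained one; the 21 that reversed were uncalled values of Ezh1, Eed and Phf19. With library size alone Ezh1 was 0.21 and Eed 0.18 in Hdac2 ECKO, and Ezh1 0.044 and Phf19 0.043 in beta-catenin GOF. With sample quality weights Eed was 0.053 in Hdac2 ECKO and Phf19 0.32 in labelled Ezh2 ECKO, where Eed was 0.044 after the length and GC correction and Phf19 0.14 without both libraries. Leaving out 1 library gave -0.21 to 0.10 for Ezh1 and -0.17 to 0.022 for Eed in Hdac2 ECKO, -0.98 to 0.14 for Phf19 in labelled Ezh2 ECKO, and -0.21 to 0.12 for Ezh1 and -0.37 to 0.52 for Phf19 in beta-catenin GOF. Of the other genes, after the length and GC correction Lcorl was -0.45 in Hdac2 ECKO, Lcor -0.15 and Lcorl -0.39 in labelled Ezh2 ECKO and Kdm6b -0.023 in beta-catenin GOF. Leaving out 1 library gave -0.091 to 0.27 for Kdm6b in labelled Ezh2 ECKO, and -0.21 to 0.54 for Phf1, -0.0095 to 0.24 for Kdm6a and -0.063 to 0.37 for Kdm6b in beta-catenin GOF.

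The Ezh1 to Ezh2 log2 ratio over 12 libraries was 1.94 with 1 count added and 1.78 to 2.01 when 1 library was left out. In the replicate block the exact permutation p was 0.35 for Ezh1 to Ezh2 and 0.64 for Rbbp4 to Rbbp7. Same-numbered libraries had a mean correlation of 0.02 over 18 pairs, with 4 pairs over 0.1. Of 12 libraries 6 correlated best with their own number, so the numbers were not taken to pair the libraries. The block called 3 members in Hdac2 ECKO, where 14.6% of all tested genes were called, against 9.2% without it. The coding length of the RefSeq protein was not run. Phf19 had 0 to 29 counts a library, and a change of it was not detectable at this depth.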
